A study of Homo sapiens with 12 samples.

Results

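The genes of the desmosome were described in spheroids of the human prostate cancer cell line DU145 that differ in α2 integrin, the collagen-binding subunit encoded by ITGA2. The 10 genes were taken by symbol from the 26485 genes of the tables: the plakophilins PKP1, PKP2, PKP3 and PKP4, the plakin DSP, the plakoglobin gene JUP, and the desmosomal cadherins DSG2, DSG3, DSC2 and DSC3. All 3 lines were derived from DU145 and carried a CRISPR-Cas9 knockout of ITGA2, with 4 biological replicates of each. DU145KO received no further transfection, DU145KO+α2 was stably transfected with α2 integrin cDNA in the pAWneo2 expression vector, and DU145KO+vector with the empty vector. DU145KO+α2 was therefore the α2 positive line and the others the α2 negative lines. Both transfected lines were maintained with geneticin. RNA was sequenced from spheroids of 8000 cells grown for 72 hours without serum. The labels do not say whether a line is 1 clone, so a difference between lines cannot be told apart from a difference between derivations. PKP1 was among the genes the study selected for their difference in these same libraries, so its difference here is not independent evidence. The study also reported a PKP1 difference between α2 positive and α2 negative spheroids by quantitative PCR. It further measured the selected genes by quantitative PCR in cells on collagen I or fibronectin. That was done for DU145KO+α2 against DU145KO+vector, for wild-type DU145 against DU145KO, and in PC3 cells. The study listed PKP1 among the genes that changed in the same direction after α2β1 bound collagen. None of these measurements was used here.

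Desmosomes are cell-cell junctions that couple the keratin filaments of neighbouring epithelial cells. Desmogleins and desmocollins span the membrane and bind each other between cells. Inside the cell their tails bind plakoglobin and plakophilins, and these bind desmoplakin, the protein of DSP, which holds the keratin filaments. Plakophilins also occur outside the junction, where they bind RNA-binding proteins. PKP1, DSG3 and DSC3 are known mainly from stratified and basal epithelia, and DSG2, DSC2 and PKP2 from simple epithelia.

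PKP1, DSP and DSC3 are the genes called between lines in the main test below. PKP2 and JUP were called as well in a model that takes the replicate number as a block. The 250 bases before the start of PKP1, DSP and DSC3 in RefSeq (GRCh38.p14) are shown on each gene's own strand. Capitals mark CAGGTG, the E-box bound by the SNAI and ZEB repressors, and AACCGG, which is part of the motif of the grainyhead-like factors. Both strands were searched, so AACCGG on the other strand reads CCGGTT.
PKP1 (chr1:201283256-201283505, plus strand): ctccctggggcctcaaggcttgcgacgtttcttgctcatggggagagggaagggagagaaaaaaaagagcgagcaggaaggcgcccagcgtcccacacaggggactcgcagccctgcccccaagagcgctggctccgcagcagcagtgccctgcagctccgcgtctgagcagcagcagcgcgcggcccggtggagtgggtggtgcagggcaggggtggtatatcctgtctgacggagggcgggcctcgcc
DSP (chr6:7541421-7541670, plus strand): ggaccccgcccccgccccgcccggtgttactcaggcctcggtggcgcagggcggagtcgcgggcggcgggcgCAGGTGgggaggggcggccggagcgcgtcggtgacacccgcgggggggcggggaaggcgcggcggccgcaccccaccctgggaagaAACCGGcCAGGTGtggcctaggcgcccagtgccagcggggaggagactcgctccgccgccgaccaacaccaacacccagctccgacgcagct
DSC3 (chr18:31042743-31042992, minus strand): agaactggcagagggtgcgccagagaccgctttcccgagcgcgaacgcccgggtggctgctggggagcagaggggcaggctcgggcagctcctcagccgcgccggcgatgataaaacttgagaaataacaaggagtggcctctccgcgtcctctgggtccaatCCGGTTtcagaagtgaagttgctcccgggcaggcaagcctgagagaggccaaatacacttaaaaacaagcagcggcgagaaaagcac
The DSP window held CAGGTG 2 times and AACCGG once, without overlap, the DSC3 window held AACCGG, and the PKP1 window held neither. Over 35116 promoter windows of the same length, 17.49% held CAGGTG and 5.992% held AACCGG. RefSeq windows were matched for 8 of the 10 genes, with 11 windows in all, of which 4 held CAGGTG and 2 held AACCGG. PKP2 and PKP3 had no window. Besides DSP, the DSG2 window and a JUP window held CAGGTG 2 times, and a DSC2 window held it 1 time. DSG2 and DSC2 were not called in any comparison. The GC content was 78.0% in the DSP window, 67.6% in that of PKP1 and 60.4% in that of DSC3, and the median over all windows was 58.0%. In GRCh38, PKP1 spans chr1:201283452-201332993, DSP spans chr6:7541338-7586714 and DSC3 spans chr18:30989365-31042815. These bounds cover all annotated transcripts, so each RefSeq start lies inside them. The others are PKP2 at chr12:32790745-32896798, PKP3 at chr11:392614-404908, PKP4 at chr2:158456952-158682879, JUP at chr17:41754604-41786931, DSC2 at chr18:31058840-31102522, DSG3 at chr18:31447741-31478702 and DSG2 at chr18:31498177-31549008.

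Each sample had 13948734 to 19988111 counts, and 3 counts, the limit taken for detection, corresponded to 0.150 to 0.215 CPM (counts scaled to sequencing depth). The filter on low counts left 14732 genes to test. ITGA2 was 259.4 to 332.1 CPM in DU145KO+α2, 15.7 to 25.8 CPM in DU145KO and 13.0 to 20.3 CPM in DU145KO+vector, in the order that the labels give. Epithelial markers, read as a description, were EPCAM, CDH1, KRT8, KRT18, KRT19, ESRP1 and CLDN4. None was at 0 in a line, and their summed level was 1018 to 1805 CPM per sample. ESRP1 had 67 to 101 counts per sample in DU145KO, but 7 to 14 in DU145KO+vector and 5 to 9 in DU145KO+α2. Of 4 basal prostate markers, KRT5, KRT14 and TP63 were at or below 3 counts in every sample of each line, and of 6 luminal markers, KLK3 and KLK2 were at 0 in all samples.

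Of the 10 desmosome genes, 9 passed the filter. DSG3 was left out of the tests, with 1 to 11 counts per sample. A gene was called when its p-value from edgeR's quasi-likelihood test, adjusted by Benjamini-Hochberg over all genes tested, was below 0.05. The replicate numbers were taken to pair the samples across lines. Calls that a model taking this number as a block adds or loses are therefore given beside the results. With the block, ITGA2 was lower in DU145KO+vector than in DU145KO (log2 fold change −0.23, adjusted p = 0.0402, and 0.534 without the block). The 3 comparisons share samples, and each is given by its own values.

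Between DU145KO+α2 and DU145KO+vector, 1 member was higher (DSC3) and 1 lower (PKP1), where 5.96% of all genes were called higher and 5.95% lower. With the block, 2 members were higher (DSC3 and PKP2) and 2 lower (PKP1 and JUP), against 12.9% and 13.7% of all genes. Between DU145KO+α2 and DU145KO, 1 was higher (DSC3) and 2 lower (PKP1 and DSP), where 3.09% and 5.08% of all genes were called. With the block JUP made 3 lower, against 9.93% higher and 12.4% lower of all genes. Between DU145KO+vector and DU145KO, 1 was higher (DSC3) and 1 lower (DSP), where 0.496% and 1.84% of all genes were called, and with the block PKP2 made 2 lower, against 5.59% and 7.85%. Under a stricter rule that also asks for a change above 2-fold, PKP1 was lower in DU145KO+α2 than in the vector line (0.821% of all genes), PKP1 and DSP were lower than in DU145KO (1.67%), and DSP was lower in DU145KO+vector than in DU145KO (0.808%). With 9 genes tested, 1 gene is the smallest step of such a count, and the counts were not read as a difference between the desmosome genes and all genes. The median log2 fold change of the 9 genes was −0.04, −0.15 and −0.09 in the 3 comparisons, where that of all genes was −0.01 in the first and 0.00 in the others.

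**Figure D1:**
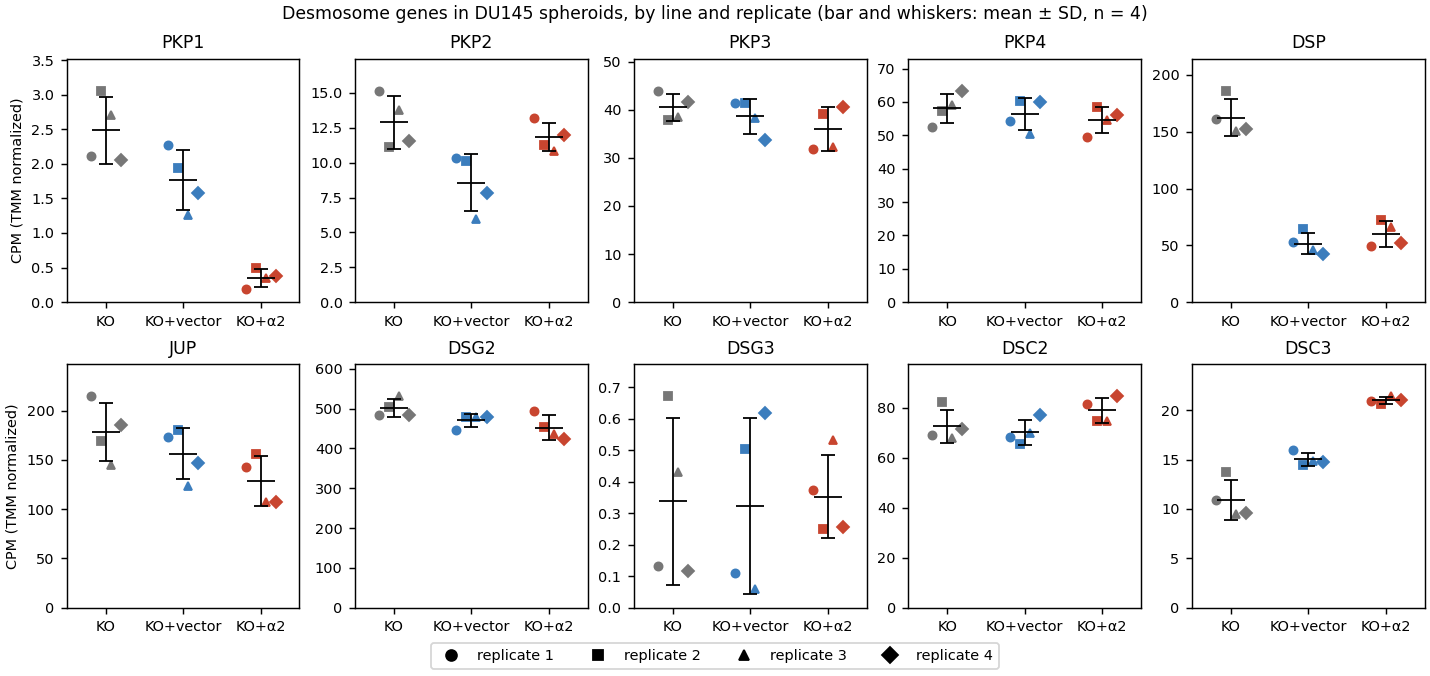
TMM-normalized CPM of the 10 desmosome genes in each sample of the 3 lines (KO, DU145KO), with marker shapes for the replicate number and the mean ± SD of 4 samples. The 4 DU145KO+α2 samples of PKP1 sit at 0.186 to 0.50 CPM, under all 8 α2 negative samples, whereas DSP is high in DU145KO alone and DSC3 separates all 3 lines.

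PKP1, the plakophilin best known from desmosomes of stratified epithelia, was lowest in the α2 positive line. Its level was 2.12, 3.06, 2.71 and 2.05 CPM in replicates 1 to 4 of DU145KO, and 2.27, 1.94, 1.27 and 1.58 CPM in those of DU145KO+vector. In DU145KO+α2 it was 0.186, 0.50, 0.354 and 0.382 CPM. Every α2 positive sample was below every α2 negative sample, and the ranges of the α2 negative lines overlapped. Compared to DU145KO+vector, PKP1 was 4.80-fold lower in DU145KO+α2 (log2 fold change −2.26, SE 0.31, adjusted p = 0.000227). Compared to DU145KO it was 6.74-fold lower (log2 fold change −2.75, SE 0.30, adjusted p = 4.03e-05). The α2 negative lines were not called apart (DU145KO+vector against DU145KO, log2 fold change −0.49, 95% interval −0.999 to 0.021, adjusted p = 0.362).

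These PKP1 values rest on few reads. The counts were 32 to 50 per sample in DU145KO, 22 to 41 in DU145KO+vector and 3 to 10 in DU145KO+α2, where replicate 1 was at the detection limit of 3 counts. Summed over the 4 samples of a line, PKP1 had 161, 113 and 25 counts, and the exact 95% Poisson interval of the last was 16.2 to 36.9, which covers counting error only. PKP1 passed the count filter through the α2 negative lines, and it was removed where each sample had to have 10 counts or more. In bulk RNA, fewer cells that express a gene and less RNA per cell cannot be told apart. Of 7 epithelial markers, CDH1 was lower and CLDN4 higher in DU145KO+α2 than in DU145KO+vector, where 5.95% and 5.96% of all genes were called. With the block KRT8 and KRT18 made 3 lower, against 13.7% of all genes. The part of these markers in the PKP1 difference was not tested.

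PKP2, the plakophilin of simple epithelia and heart muscle, had its lowest level in the vector line. It was 15.2, 11.1, 13.8 and 11.5 CPM in DU145KO, and 13.2, 11.3, 10.9 and 11.97 CPM in DU145KO+α2. In DU145KO+vector it was 10.3, 10.1, 5.98 and 7.85 CPM, below every sample of the other lines. The log2 fold change of DU145KO+α2 against DU145KO+vector was 0.47 (SE 0.16, adjusted p = 0.0739), and that of DU145KO+vector against DU145KO was −0.59 (SE 0.16, adjusted p = 0.0670). Both became calls with the replicate block, with adjusted p-values of 0.00756 and 0.00322. DU145KO+α2 and DU145KO overlapped (log2 fold change −0.12, 95% interval −0.46 to 0.21, adjusted p = 0.725).

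PKP3 and PKP4 were the more abundant plakophilins, and neither was called in any comparison, with or without the block. PKP3, which binds the widest set of desmosomal proteins among the plakophilins, was 37.8 to 43.9 CPM in DU145KO, 33.6 to 41.4 CPM in the vector line and 31.9 to 40.6 CPM in DU145KO+α2. Its log2 fold change between DU145KO+α2 and DU145KO+vector was −0.10 (95% interval −0.31 to 0.10). PKP4, also found at adherens junctions, was 52.5 to 63.4 CPM in DU145KO, 50.5 to 60.4 CPM in the vector line and 49.5 to 58.6 CPM in DU145KO+α2. Its log2 fold change in the same comparison was −0.04 (95% interval −0.22 to 0.13). The intervals of both genes exclude a 2-fold change in either direction in all 3 comparisons.

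DSP, which links the junction to keratin filaments, was high in DU145KO and low in both transfected lines. It was 161.4, 186.0, 150.2 and 152.0 CPM in DU145KO and 53.3, 64.0, 46.0 and 42.7 CPM in DU145KO+vector. In DU145KO+α2 it was 49.0, 72.4, 66.6 and 51.6 CPM. The transfected lines overlapped each other, and both lay wholly below DU145KO. DSP was 3.16-fold lower in DU145KO+vector than in DU145KO (log2 fold change −1.66, SE 0.14, adjusted p = 4.23e-05) and 2.71-fold lower in the α2 line than in DU145KO (log2 fold change −1.44, SE 0.14, adjusted p = 2.89e-05). DU145KO+α2 against DU145KO+vector gave a log2 fold change of 0.22 (95% interval −0.08 to 0.52, adjusted p = 0.372). DSP thus set the untransfected line apart from both transfected lines, whether or not these carried α2 integrin.

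Of the 7 epithelial markers, 3 were lower in DU145KO+vector than in DU145KO (EPCAM, ESRP1 and CLDN4) and 4 lower in DU145KO+α2 than in DU145KO (EPCAM, CDH1, KRT18 and ESRP1), with none higher in either. Over all genes, 1.84% were called lower in DU145KO+vector and 5.08% in DU145KO+α2, each against DU145KO. ESRP1 passed the count filter through DU145KO, where it was high. The marker counts were therefore not read as a difference between the markers and all genes. With the block KRT8 made 5 lower in DU145KO+α2 than in DU145KO, against 12.4% of all genes. CDH1, KRT8, KRT18 and KRT19 were not called between DU145KO+vector and DU145KO, nor CLDN4 and KRT19 between DU145KO+α2 and DU145KO. The summed level of the markers was 1391 to 1805 CPM in DU145KO, 1200 to 1495 CPM in the vector line and 1018 to 1356 CPM in DU145KO+α2. No marker was at 0 in any line. EPCAM, an epithelial adhesion protein, changed by −0.83 (log2) in the vector line and −1.14 in the α2 line against DU145KO (adjusted p = 0.00093 and 1.86e-05). The part of these shifts in the DSP difference was not tested.

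JUP, whose protein plakoglobin bridges the cadherin tails and desmoplakin, was 214.6, 168.7, 144.5 and 185.2 CPM in DU145KO. It was 172.8, 180.5, 123.7 and 147.1 CPM in DU145KO+vector, and 142.6, 156.3, 107.0 and 106.7 CPM in DU145KO+α2. The 3 lines overlapped, and replicates 3 and 4 of DU145KO+α2 were the lowest of the 12 samples. Without the block no comparison was called. The log2 fold change of DU145KO+α2 was −0.28 against DU145KO+vector (adjusted p = 0.296, and 0.0214 with the block) and −0.48 against DU145KO (adjusted p = 0.0873, and 0.000877 with the block). DU145KO+vector against DU145KO gave −0.19 (95% interval −0.53 to 0.15).

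Among the desmosomal cadherins, DSC3 was the gene that differed. DSC3, a desmocollin of basal epithelial layers, was 10.9, 13.8, 9.47 and 9.54 CPM in DU145KO and 16.02, 14.5, 14.8 and 14.7 CPM in DU145KO+vector. In DU145KO+α2 it was 20.9, 20.6, 21.4 and 21.1 CPM. No 2 of the 3 lines overlapped. DSC3 was 1.40-fold higher in DU145KO+α2 than in DU145KO+vector (log2 fold change 0.48, SE 0.11, adjusted p = 0.0088) and 1.93-fold higher than in DU145KO (log2 fold change 0.94, SE 0.11, adjusted p = 9.37e-05). DU145KO+vector was 1.38-fold above DU145KO (log2 fold change 0.46, SE 0.11, adjusted p = 0.0451). That last call was lost in 13 of 20 alternatives, over which its adjusted p was 0.00421 to 0.114, and it was held with the replicate block (0.00421). Of the fits with 1 sample left out, the one without DU145KO replicate 2 kept it and the other 11 lost it.

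DSC2, the desmocollin found in all tissues with desmosomes, was 67.8 to 82.2 CPM in DU145KO, 65.6 to 77.2 CPM in the vector line and 74.9 to 84.7 CPM in DU145KO+α2. Its log2 fold change between DU145KO+α2 and DU145KO+vector was 0.17 (95% interval 0.00 to 0.34, adjusted p = 0.201). DSG2, the desmoglein of simple epithelia, was 483.1 to 531.5 CPM in DU145KO, 445.6 to 479.3 CPM in the vector line and 424.0 to 495.1 CPM in DU145KO+α2. DU145KO and DU145KO+vector did not overlap in DSG2, but the log2 fold change was −0.09 (95% interval −0.24 to 0.06, adjusted p = 0.624). Neither gene was called in any comparison, with or without the block. Exons of DSG2 overlap those of the opposite-strand gene DSG2-AS1 over 1.96% of their bases, and DSG2-AS1 had at most 4 counts in a sample. DSG3, a desmoglein of basal epithelial layers, had 22 counts over the 4 samples of DU145KO, 19 in DU145KO+vector and 24 in DU145KO+α2.

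**Figure D2:**
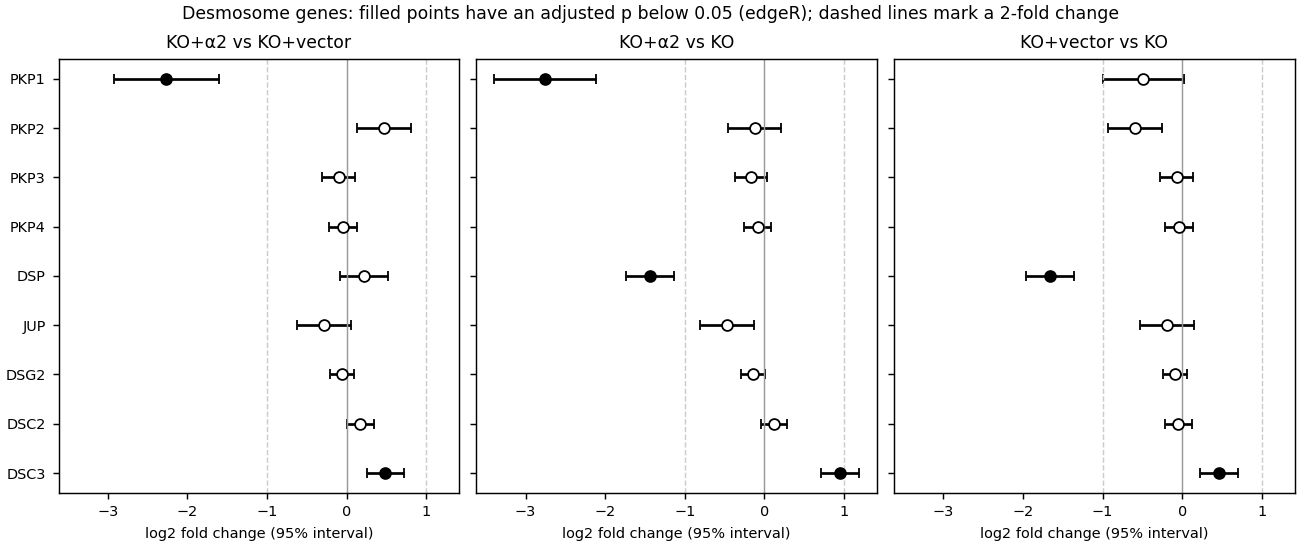
Log2 fold changes of the 9 tested desmosome genes in the 3 comparisons (KO, DU145KO), with 95% intervals from the edgeR fit of all 12 samples. PKP1 lies below −1 in both comparisons of DU145KO+α2, DSP lies below −1 in both comparisons against DU145KO, and DSC3 is filled on the higher side in all 3.

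The genes also differed in level. Per length, in the deposited RPKM (reads scaled to gene length and sequencing depth), the order in DU145KO was DSG2 at 87.7 ± 3.37 (SD, n = 4), JUP at 50.3 ± 8.68, DSP at 16.5 ± 1.68, DSC2 at 13.7 ± 1.23, PKP3 at 13.6 ± 1.06 and PKP4 at 12.04 ± 0.89. PKP2 followed at 2.88 ± 0.43, DSC3 at 1.40 ± 0.26, PKP1 at 0.451 ± 0.086 and DSG3 at 0.0601 ± 0.047. The samples of DSP and DSC2, of DSC2 and PKP3, and of PKP3 and PKP4 overlapped, and all other neighbours in this order were apart. In both transfected lines DSP stood in the sixth place, under PKP4, with 5.28 ± 0.99 RPKM in DU145KO+vector and 6.15 ± 1.16 RPKM in DU145KO+α2. PKP1 fell to the level of DSG3 in DU145KO+α2, at 0.0652 ± 0.024 against 0.0634 ± 0.024 RPKM, with overlapping samples.

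The makeup of each protein class was given by its RPKM shares. Of the summed plakophilin RPKM, PKP1 held 1.57% ± 0.36 in DU145KO, 1.18% ± 0.23 in DU145KO+vector and 0.244% ± 0.077 in DU145KO+α2 (SD, n = 4). PKP3 held 46.1% to 48.2% and PKP4 41.6% to 43.6% on average, so the plakophilin RNA of all 3 lines was mainly these. DSC3 held 9.26% ± 0.88 of the desmocollin RPKM of DSC2 and DSC3 in DU145KO, 12.8% ± 0.95 in DU145KO+vector and 15.4% ± 0.83 in DU145KO+α2, with no overlap between lines. DSG2 held at least 99.86% of the RPKM of DSG2 and DSG3 in every sample. The ratio of DSP to DSG2 RPKM was 0.164 to 0.214 in DU145KO, 0.0518 to 0.0776 in DU145KO+vector and 0.0575 to 0.0926 in DU145KO+α2.

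**Figure D3:**
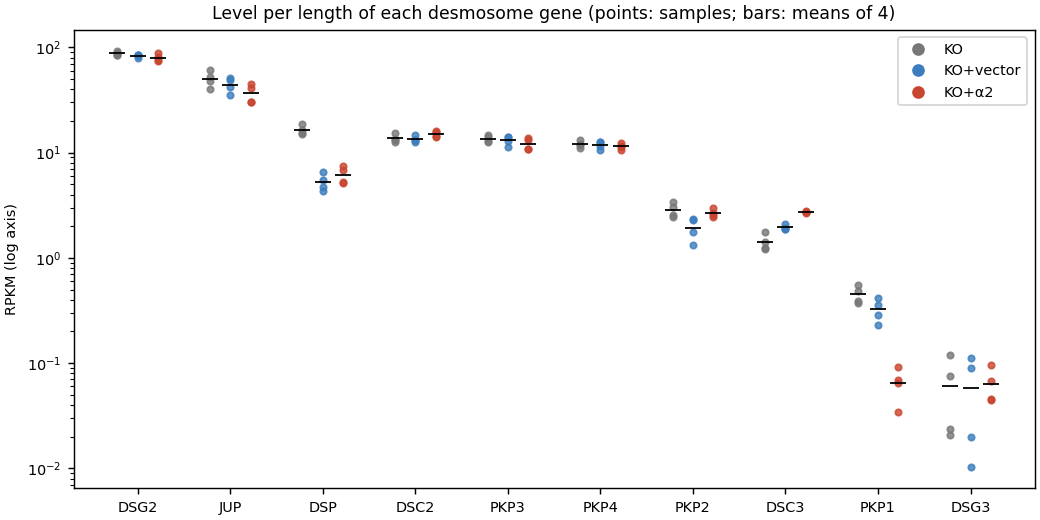
RPKM of each desmosome gene per sample on a log axis, coloured by line (KO, DU145KO), with the mean of 4 samples as a bar. DSG2 is highest in every line, at 80.1 to 87.7 RPKM on average, and PKP1 in DU145KO+α2 lies with DSG3.

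Genes that work with these were followed in lists. Of 9 other desmosome genes, 5 were tested, and DSC1, DSG1 and DSG4 had at most 9 counts in a sample, with DSG4 at 0 in all 12. CDSN, which was not tested either, had 2 to 22 counts. None of the 5 tested genes was called between DU145KO+α2 and DU145KO+vector, where 5.96% of all genes were called higher and 5.95% lower. KAZN, a periplakin-binding protein, was higher in DU145KO+α2 than in DU145KO (log2 fold change 0.69, adjusted p = 0.0317), and its value in DU145KO+vector was similar (0.68, adjusted p = 0.0765, and 0.0243 with the block). With the block, PERP, a desmosomal membrane protein, became a call in all 3 comparisons (log2 fold changes 0.22, −0.20 and −0.42 with the block), and PPL, the plakin periplakin, became lower in DU145KO+α2 than in DU145KO (−0.30, adjusted p = 0.00456).

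The hemidesmosome, which anchors keratin to the basement membrane through integrin α6β4, had 8 genes in its list, all tested. In DU145KO+α2, 3 were lower and none higher than in the vector line, and the same 3 were lower than in DU145KO. Over all genes, 5.95% and 5.08% were called lower in these comparisons. With 8 genes tested, the counts were not read as a difference between the list and all genes. With the block DST, ITGA6 and LAMA3 made 6 lower in the first comparison, against 13.7% of all genes. COL17A1, a transmembrane collagen, had log2 fold changes of −1.50 and −0.77 (adjusted p = 0.000119 and 0.0195), ITGB4, the β4 subunit, had −0.82 and −0.99, and LAMB3 had −0.46 and −0.49. LAMB3 encodes a chain of laminin-332, the ligand of α6β4. Between DU145KO+vector and DU145KO, COL17A1 was higher (log2 fold change 0.73, adjusted p = 0.0455) and no other gene of the list was called, but with the block DST was higher too (0.33). The median log2 fold change of the list was −0.32, −0.12 and 0.08 in the 3 comparisons.

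Of 14 genes of adherens junctions and the catenin family that plakophilins belong to, 11 were tested. CDH1, encoding E-cadherin, was lower in DU145KO+α2 than in the vector line (log2 fold change −0.70, adjusted p = 0.00981) and than in DU145KO (−1.13, adjusted p = 0.00054). CDH3, encoding P-cadherin, was lower too (−0.48 and −0.88, adjusted p = 0.0458 and 0.00174), and its first call was lost with the block (adjusted p = 0.0669). PVRL3, a nectin, was higher in DU145KO+α2 and in DU145KO+vector than in DU145KO (0.42 and 0.43). With the block, ARVCF and PVRL2 were higher and MLLT4 lower in the first comparison. Against DU145KO it added PVRL2 (higher), CTNNA1 and MLLT4 (lower) in the α2 line, and CTNNA1 (lower) in the vector line. The list medians were −0.06, −0.09 and −0.03.

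Of 16 genes of keratins, vimentin and their linkers, 10 were tested and none was called between DU145KO+α2 and DU145KO+vector. Over all genes, 5.96% were called higher and 5.95% lower there. With the block, 2 were lower in that comparison (KRT8 and KRT18, log2 fold changes −0.37 and −0.27), against 13.7% of all genes. KRT18, a keratin of simple epithelia that desmoplakin binds, was lower in DU145KO+α2 than in DU145KO (−0.42, adjusted p = 0.0434). KRT81 was lower in both transfected lines than in DU145KO (−1.19 and −1.36 for the α2 and vector lines), and KRT86 was lower in DU145KO+vector (−1.15). KRT81 and KRT86 are near-identical hair keratins, so their reads are uncertain. With the block, VIM, encoding vimentin, was higher in both transfected lines than in DU145KO (0.21 and 0.24). It also made 3 lower in DU145KO+α2 than in DU145KO, adding KRT8, against 12.4% of all genes. The list medians were −0.02, −0.24 and −0.12.

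Of 8 genes for proteins that bind plakophilins, 7 were tested. IGF2BP1, an RNA-binding protein, was higher in DU145KO+α2 than in DU145KO+vector (log2 fold change 2.46, adjusted p = 4.64e-06) and than in DU145KO (0.98, adjusted p = 0.00377), and lower in DU145KO+vector than in DU145KO (−1.48, adjusted p = 0.00187). SFN, encoding stratifin, was lower in DU145KO+α2 than in both α2 negative lines (−0.54 and −0.83). PABPC1, the poly(A)-binding protein, was lower in DU145KO+α2 than in DU145KO (−0.40, adjusted p = 0.0373). The block added lower calls for G3BP1 in the first comparison, G3BP1 and ERBB2IP in the α2 line against DU145KO, and PABPC1 in the vector line against DU145KO. The list medians were −0.09, −0.26 and −0.17.

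Of 28 transcription and signalling regulators of desmosomes, 20 were tested, and 1 was called between DU145KO+α2 and DU145KO+vector. ST14, the membrane protease matriptase, was lower (log2 fold change −1.23, adjusted p = 0.00141), and it was also lower in DU145KO+α2 and in DU145KO+vector than in DU145KO (−2.78 and −1.55). Against DU145KO, 4 regulators were lower in DU145KO+α2 and the same 4 in DU145KO+vector: ST14, ESRP1, OVOL2 and ELF3. Over all genes, 5.08% and 1.84% were called lower in these comparisons, and 5.95% between DU145KO+α2 and DU145KO+vector. ESRP1, an epithelial splicing factor, had log2 fold changes of −3.65 and −3.001, OVOL2, an epithelial repressor of ZEB genes, −1.97 and −1.72, and ELF3, an epithelial transcription factor, −0.40 and −0.34. OVOL2 had 17 to 20 counts per sample in DU145KO and 3 to 9 in the transfected lines. ESRP1 had 67 to 101 in DU145KO and 5 to 14 in the transfected lines. Both passed the count filter through DU145KO, the line where they were high. The count of 4 was therefore not read as a difference between the list and all genes. ZEB2, a repressor of epithelial genes, was higher in DU145KO+vector than in DU145KO (1.58, adjusted p = 0.0382), and DU145KO+α2 gave 1.05 (adjusted p = 0.122, and 0.0279 with the block). ZEB2 too had few counts, with 6 to 13 per sample in DU145KO, 19 to 38 in DU145KO+vector and 13 to 30 in DU145KO+α2. It passed the count filter through the transfected lines. In the first comparison the block added PRKCA (higher) and KLF4 (lower). Against DU145KO it made 4 regulators higher (ZEB1, ZEB2, PRKCA and ADAM10) and 7 lower in the α2 line, adding KLF4, KLF5 and ESRP2. In the vector line it made 2 higher (ZEB1 and ZEB2) and 5 lower, adding KLF5. Of all genes, the block called 9.93% higher and 12.4% lower in the α2 line, and 5.59% and 7.85% in the vector line. The tested SNAI and grainyhead-like genes of the list, SNAI1, SNAI2, GRHL1 and GRHL3, were not called in any comparison, with or without the block. The list medians were −0.06, −0.16 and −0.12.

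**Figure D4:**
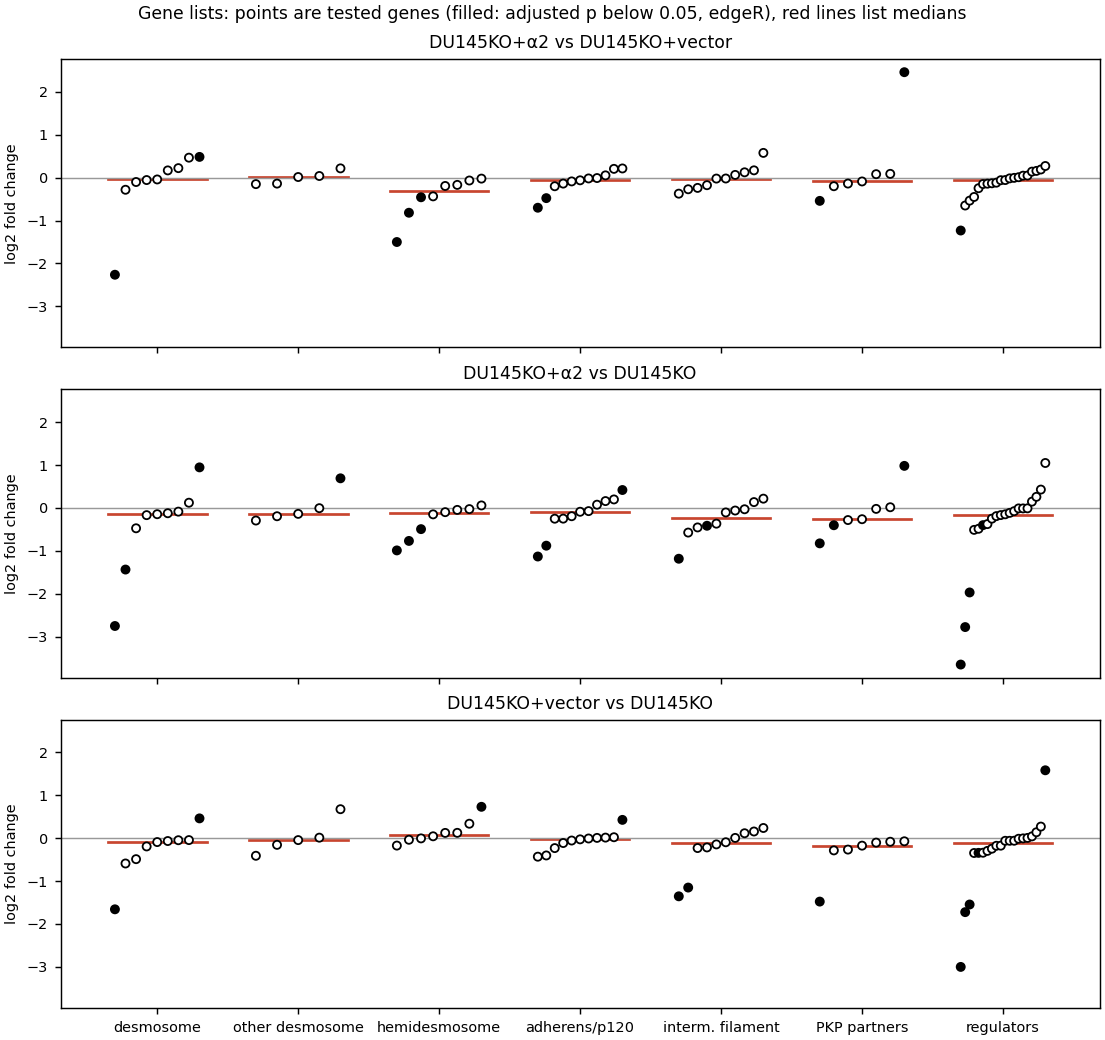
Log2 fold changes of the tested genes of the desmosome and of 6 lists of related genes in the 3 comparisons, filled where the adjusted p is below 0.05, with each list's median as a red line. The hemidesmosome list has 3 filled points, all lower, in both comparisons of DU145KO+α2, and the regulators have 4 lower filled points in both comparisons against DU145KO. Among these regulators, ESRP1 and OVOL2 passed the count filter through DU145KO. Of all genes, 5.95%, 5.08% and 1.84% were called lower in the 3 comparisons.

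The genes around 3 loci were compared with the members, using all tested genes within 1 Mb. PKP1 had 22 such neighbours, with median log2 fold changes of −0.04, −0.06 and −0.05 in the 3 comparisons. LAD1, which encodes the basement membrane protein ladinin and lies 47.8 kb from PKP1, was the nearest on one side. It was 4.24 to 4.76 CPM in DU145KO, 1.44 to 1.66 CPM in the vector line and 0.255 to 1.45 CPM in DU145KO+α2. LAD1 was lower in DU145KO+vector and in DU145KO+α2 than in DU145KO (log2 fold change −1.54 and −2.27, adjusted p = 0.0092 and 0.00025), and the transfected lines were not called apart (−0.73, adjusted p = 0.193). TMEM9, 112 kb away on the other side, had log2 fold changes of 0.03, 0.16 and 0.13, and the second became a call with the block (adjusted p = 0.403, and 0.0181 with the block). Without the block, ELF3 was the other neighbour called against DU145KO (−0.40 for the α2 line and −0.34 for the vector line), and CSRP1 the neighbour called between DU145KO+α2 and DU145KO+vector (−0.27, adjusted p = 0.0409). Over all genes, 5.95%, 5.08% and 1.84% were called lower in the 3 comparisons. The block added PHLDA3 (lower) in the first comparison, TMEM9 (higher), PHLDA3 and C1orf106 (lower) in the α2 line against DU145KO, and CSRP1 and UBE2T (higher) in the vector line against DU145KO. ELF3, an epithelial transcription factor, CSRP1 and those called with the block alone were named here after their values were seen.

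None of the 9 tested neighbours of DSP was called without the block, and their log2 fold changes lay between −0.26 and 0.40. Over all genes, 5.96%, 3.09% and 0.496% were called higher and 5.95%, 5.08% and 1.84% lower in the 3 comparisons. With 9 genes tested, the lack of a call was not read as a result about this locus. With the block SNRNP48, 3.5 kb from DSP, was higher in the α2 line than in both α2 negative lines (log2 fold change against the vector line and DU145KO 0.33 and 0.20, adjusted p = 0.00116 and 0.039). Of all genes, the block called 12.9% and 9.93% higher in these comparisons. DSC3, DSC2, DSG3 and DSG2 lie in 1 cluster on chromosome 18, and 5 neighbours were tested there. All 5 lie past the DSG2 end, the nearest being B4GALT6 at 73.2 kb from it. DSC3 is at the other end, where no neighbour was tested, so these genes say little about its surroundings. B4GALT6 was higher in DU145KO+α2 than in DU145KO+vector (0.40, adjusted p = 0.0294), and with the block also than in DU145KO (0.27, adjusted p = 0.00668, and 0.161 without the block). RNF125 was lower (−0.35 against DU145KO+vector and −0.36 against DU145KO). DSC2, the member next to DSC3 in the cluster, had 0.17, 0.12 and −0.05 in the 3 comparisons, where DSC3 had 0.48, 0.94 and 0.46.

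**Figure D5:**
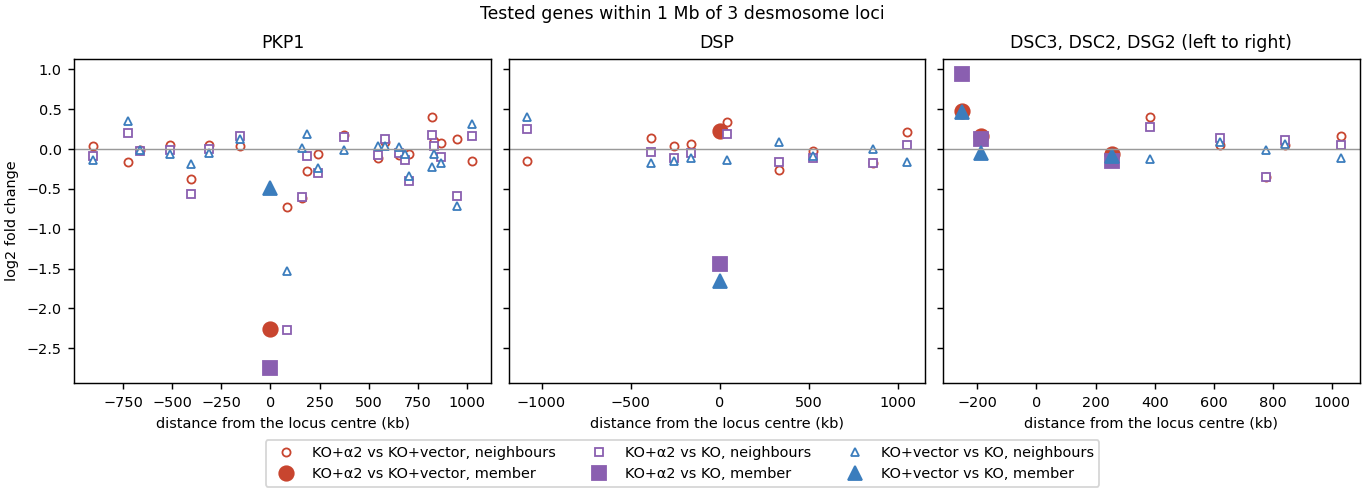
Log2 fold changes of tested genes within 1 Mb (open) and of the desmosome genes (filled) against distance from the locus centre in kb, for the 3 comparisons (KO, DU145KO). LAD1 is the open pair under −1 beside PKP1, and no neighbour of DSP comes near its filled points under −1.

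The genes most like PKP1 were found by Pearson's r of log2 CPM over the 12 samples, among 12851 genes, as a description. They were DNAJA4 (r = 0.966), SYK (0.955), MLPH (0.949), TMEM116 (0.946) and ITGB4 (0.944). The points are 4 libraries of each of 3 lines, and they share line and library. SYK, a tyrosine kinase that the study also selected in these libraries, was 7.72 ± 0.73 CPM in DU145KO, 7.02 ± 0.85 CPM in the vector line and 1.55 ± 0.33 CPM in DU145KO+α2 (SD, n = 4). DNAJA4, a heat shock cochaperone, was 32.4 ± 3.07, 28.6 ± 2.53 and 16.7 ± 1.503 CPM in the same order. ITGB4, the hemidesmosomal integrin subunit described above, was 43.9 ± 0.86, 38.9 ± 4.77 and 22.03 ± 2.62 CPM.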

How the data were processed

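RNA of 12 spheroid samples was sequenced single-end from stranded mRNA libraries. The authors aligned the reads to hg38 with TopHat 2.1.0, counted uniquely aligned reads on known genes with Subread 1.5.0, and deposited raw read counts. The strand setting of the counting is not given in the sources used here. The authors also deposited RPKM values, made from the counts after TMM normalization, which were used to set levels of different genes side by side. Lines and replicate numbers came from the sample labels.

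Counts were tested with edgeR 4.0.16 in R 4.3.3 (TMM, filterByExpr with a minimum count of 10, robust quasi-likelihood F-test, all 12 samples in 1 model, two-sided, Benjamini-Hochberg over the 14732 genes tested). Standard errors and 95% intervals come from the same fit. The adjusted p-values measure the spread between the 4 replicates of a line, and intervals on counts cover counting error only, since reads carry no molecular identifiers. The total count was 13948734 to 19988111 per sample. Deviations from the line mean correlated across genes in all 12 pairs of same-numbered samples (r 0.135 to 0.554, mean 0.378). The 36 pairs with different numbers had r −0.290 to 0.149, so the ranges overlapped, and 2 of these pairs were above 0.1. Their mean of −0.126 is no separate evidence, because subtracting the line mean ties it to the same-number mean. The numbers were taken to pair the samples, from the labels and the same-numbered pairs. Alternatives were DESeq2 1.42.0 size factors, library size alone, the DESeq2 Wald test, voom with limma 3.58.1, other count filters, the compared lines only, a replicate block, a fold rule and leaving out single samples. The code was tested on simulated data.

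The members and gene lists were chosen with earlier results of these data known. Some genes are not reported here and were left out of the lists and their counts after values were seen. Named are all members, at most 4 called genes a list by size of change, the nearest tested neighbour on each side of PKP1 and the genes of the cadherin cluster, and the 5 genes most like PKP1 whose mean log2 CPM was 1 or more. KRT86, ZEB2, the genes called with the block alone, and called neighbours were named because their counts were small, after their values were seen. SNAI1, SNAI2, GRHL1, GRHL3 and CDSN were also named after their values were seen. Positions come from the GRCh38 annotation and RefSeq, matched for 14428 of the genes tested.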

Additional observations from a re-analysis of the deposited data

Results flagged for a closer look

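DSG2 in replicate 1 of DU145KO+vector was far from the other samples of its line. It was 445.6 CPM, and the other 3 were 478.1, 479.2 and 479.3 CPM, so its gap to the nearest was 0.963 of the range of the group. It was the one group of 33 that stood out in this way, and chance gives about 1.65.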

How the results depend on the processing

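Over the alternatives, 509 of the log2 fold changes of single desmosome genes kept their direction and side of the threshold, 13 lost a call, 11 gained one and 4 changed sign. PKP1 and DSP kept every call in each alternative that could test them, with PKP1 at −2.49 to −2.06 against DU145KO+vector and −2.98 to −2.55 against DU145KO. The 13 lost calls were all DSC3 in DU145KO+vector against DU145KO. The calls gained were PKP2 and JUP.

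The replicate block raised the counts of all genes called from 1754 to 3911 between DU145KO+α2 and DU145KO+vector, from 1203 to 3286 between DU145KO+α2 and DU145KO, and from 344 to 1980 between DU145KO+vector and DU145KO, where the DESeq2 Wald test gave 587. A change above 2-fold in addition left 325, 309 and 123. With single samples left out, the last comparison ranged from 159 (without DU145KO+vector replicate 3) to 526 (without DU145KO replicate 4). The counts of desmosome genes, 2, 3 and 2, moved in the first comparison to 1 with at least 10 counts in every sample (PKP1 removed), 4 with the replicate block (JUP and PKP2 added) and 1 with the 2-fold rule. In the last they moved to 1 with that filter, with only the compared lines and with the 2-fold rule, and ranged from 1 to 2 with single samples left out.

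Signs changed for differences near 0: PKP4 between DU145KO+α2 and DU145KO+vector without DU145KO+α2 replicate 1 (0.0030, range with single samples left out −0.092 to 0.0030), PKP4 between DU145KO+vector and DU145KO without DU145KO replicate 4 (0.00046) or DU145KO+vector replicate 3 (0.0051, range −0.082 to 0.0051), and DSC2 in the same comparison without DU145KO replicate 2 (0.018, range −0.095 to 0.018). PKP2 became a call without DU145KO+vector replicate 1 (edgeR adjusted p = 0.0394 for DU145KO+α2 and 0.0398 for DU145KO against DU145KO+vector), and by the DESeq2 Wald test (0.0444 and 0.0211). JUP in DU145KO+α2 against DU145KO became one without DU145KO replicate 3 (0.0494) or DU145KO+α2 replicate 2 (0.0433), and by the DESeq2 Wald test (0.0362). The causes were not tested. Depth limits PKP1 in DU145KO+α2, and DSG3 in all lines.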
